A study of Mus musculus with 30 samples.

Results

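Classical monocytes are the circulating precursors of inflammatory macrophages, and in the mouse they carry the surface protein Ly6C and the chemokine receptor CCR2, which lets them leave the bone marrow and enter tissue. The spleen holds a reservoir of them. Part of them convert into nonclassical monocytes, which lose Ly6C, patrol the vessel wall and depend on the nuclear receptor Nr4a1. The cells described here were picked out of 4 single-cell RNA libraries of mouse spleen, depleted of red blood cells, by unique molecular identifiers (UMIs, each a captured RNA molecule). A cell was taken if it had at least 1 UMI of Ly6c2, at least 4 UMIs of Ly6c2, Ccr2, F13a1 and Vcan together and at least 2 of Lyz2 and Csf1r. It also had to have no Siglech, at most 1 UMI of Cd209a, at most 1 of Ace and Treml4, under 20 of S100a8 and S100a9, at most 2 of Cd79a, Cd79b and Ms4a1, and at most 1 of Cd3e, Cd3d and Cd3g. These conditions keep out plasmacytoid and conventional dendritic cells, nonclassical monocytes, neutrophils, B cells and T cells. The rule was met by 325 of the 46886 cells kept, which had at least 200 genes and at most 10% mitochondrial UMIs.

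The study compared 2 Smc3-WT with 2 Smc3-cKO libraries. The product of Smc3 is part of cohesin, a ring-shaped complex that extrudes loops of chromatin. The series is about cohesin and the transcription factor PU.1 (gene Spi1) in conventional dendritic cells. The labels give no Cre line, deleted exon, sex or animal for these libraries, and the age of 6 to 8 weeks stands in the protocol for sorted cells. No agent or treatment is named for either genotype. Another 26 samples (sorted-cell RNA-seq, ChIP-seq and Hi-C) were not analysed here. As the labels do not tie libraries to animals, every p-value measures only how far these libraries vary, and that variation may be technical.

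Smc3-WT replicates 1 and 2 held 30 and 48 of the cells, and Smc3-cKO replicates 1 and 2 held 139 and 108. Their summed depth was 101531, 194790, 769463 and 423509 UMIs in that order, with medians of 3032, 3671, 5343 and 3713 UMIs per cell. No cell barcode was shared between members of different libraries, and 5 members had a barcode that was also a kept cell of another library. Of all kept barcodes, 221 occurred in 2 or more libraries. The Scrublet doublet caller marked 0, 1, 2 and 3 members. Among all kept cells it marked 1.03%, 5.72%, 4.05% and 6.41%, where 12.9%, 11.5%, 7.26% and 11.3% were expected from the numbers of barcodes. It marked few cells of any kind in Smc3-WT replicate 1, so the 0 there does not show that its members were free of doublets.

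The genes of the rule were present as the name says, which is how the cells were chosen and is no result. Ccr2, the receptor for the chemokine CCL2, stood at 1507 and 1153 CPM (counts scaled to a common library total, with TMM factors between libraries) in the Smc3-WT libraries and at 1454 and 1815 CPM in the Smc3-cKO libraries. F13a1, the A chain of coagulation factor XIII, stood at 1356 and 1174 CPM (Smc3-WT) against 1957 and 2211 CPM (Smc3-cKO). Vcan, the proteoglycan versican, was the least abundant of the set, at 254 and 105 CPM (Smc3-WT) against 231 and 437 CPM (Smc3-cKO), and it was detected in 25.0% to 54.6% of members. Lyz2, lysozyme, ran from 6742 to 10653 CPM in the 4 libraries. Of the markers of other cells, which the rule itself capped, S100a8 lay between 31.5 and 80.0 CPM, and Cd209a reached 15.7 CPM at most. The B cell markers Cd79a, Cd79b and Ms4a1 stood at 65.9, 84.7 and 47.1 CPM in Smc3-WT replicate 1 and at 0 to 15.7 CPM elsewhere. The T cell markers Cd3d and Cd3e were both at 28.2 CPM there and at 0 to 5.24 CPM elsewhere. Of the 30 members of that library, 15 had a UMI of a B cell marker of the rule and 6 of a T cell marker. Just inside the limit, the 10 cells with 4 UMIs of the 4-gene sum carried 1338 CPM (unscaled) of Fn1 and 302 CPM of Cd74. The 13 cells just outside it, with 3 UMIs, carried 767 CPM of Fn1 and 219 CPM of Cd74. The 12 cells inside with 5 UMIs carried 674 and 385 CPM of these genes.

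Genes that the rule did not use also set these cells apart from B cells. That comparison does not tell monocytes from other myeloid cells. Itgam, the integrin alpha chain CD11b, had a UMI in 86.7% and 91.7% of Smc3-WT members and in 79.9% and 84.3% of Smc3-cKO members, against 2.26% to 2.93% of B cells of the same libraries. Spi1 had a UMI in 60.0%, 79.2%, 91.4% and 73.1% of members in library order, against 17.2% to 31.6% of B cells. With every cell thinned to 1000 UMIs, Spi1 was found in 26.7%, 33.3%, 37.4% and 37.0% of members and in 6.01% to 8.59% of B cells. Itgax (CD11c), Flt3 and Cd14 were rare: Itgax had a UMI in 0% to 6.25% of members, of which 0 of 30 in Smc3-WT replicate 1 allows up to 11.6% (exact interval, counting error only). B cells were the comparison for free RNA, and their median depth was 2969 and 2894 UMIs in the Smc3-WT libraries. They were kept cells with UMIs of Cd79a and Ms4a1 and no Lyz2. That choice leaves out B cells with free Lyz2 RNA, so their shares may understate free monocyte RNA.

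The condition on Ly6c2 removed very unequal numbers of cells, and it bears on everything that follows. Cells that met every condition except a Ly6c2 UMI numbered 18 and 26 in the Smc3-WT libraries, 6 in Smc3-cKO replicate 1 and 122 in Smc3-cKO replicate 2. Without that condition, Ly6c2 was detected in 62.5%, 64.9%, 95.9% and 47.0% of the gated cells, and after thinning to 1000 UMIs in 45.8%, 31.9%, 71.5% and 22.6%. Among the members themselves Ly6c2 stood at 1507 and 781 CPM (Smc3-WT) against 1862 and 684 CPM (Smc3-cKO), so that both replicates numbered 2 were low. The Ly6c2-negative cells of Smc3-cKO replicate 2 carried monocyte RNA at lower levels than its members: 1849 against 2066 CPM (unscaled) of Chil3, 1784 against 2970 CPM of Fn1, 713 against 1107 CPM of Ifitm3 and, among genes of the rule, 6626 against 10378 CPM of Lyz2. Cd74 was higher in them, at 1473 against 281 CPM. In Smc3-WT the Ly6c2-negative cells had less Chil3 (72.6 and 369 CPM) and more Cd74 (3773 and 2178 CPM). Ly6c2 is also close in sequence to its neighbour Ly6c1, and reads shared by both cannot be assigned with certainty. Results are therefore given with and without the condition where it matters.

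Smc3-WT replicate 1 stood apart from the other libraries, with the fewest members. Its members had a median of 7.20% mitochondrial UMIs against 2.75% to 4.55% elsewhere. Tmsb4x, encoding thymosin beta 4, was at 2467 CPM there against 8899 to 15324 CPM in the others, and Actb, cytoplasmic actin, at 1535 against 6298 to 7163 CPM. Ribosomal protein genes summed to 44381 CPM (unscaled) there, and to 84088 to 114380 CPM in the other libraries. B cell genes outside the gate summed to 2255 CPM in its members and to 385 to 442 CPM elsewhere. Haemoglobin was high in both replicates numbered 1: Hbb-bs stood at 1525 and 1776 CPM, against 31.5 and 146 CPM in the replicates numbered 2.

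The question of numbers came first: what share of the spleen cells were classical monocytes in each genotype. Members made up 0.245% (95% exact interval 0.166% to 0.350%) and 0.344% (0.254% to 0.456%) of kept cells in the Smc3-WT libraries. They made up 1.95% (1.64% to 2.29%) and 0.796% (0.653% to 0.960%) in the Smc3-cKO libraries. Both Smc3-cKO shares lay above both Smc3-WT shares, with means of 1.37% ± 0.814 (SD, n = 2) and 0.295% ± 0.0698 (SD, n = 2), a ratio of geometric means of 4.28-fold. The exact two-sided permutation test gave p = 0.333, the smallest value that 2 against 2 libraries allow. Without Smc3-cKO replicate 1 the ratio was 2.74-fold and without Smc3-cKO replicate 2 it was 6.70-fold. As a share of all cells in 4 myeloid gates (these cells, nonclassical monocytes, Cd209a dendritic cells and neutrophils), members made up 19.9% and 28.9% (Smc3-WT) against 32.0% and 36.6% (Smc3-cKO), a ratio of 1.43-fold. Neutrophils numbered 27 of 12226 and 20 of 13947 kept cells (Smc3-WT) against 83 of 7139 and 75 of 13574 (Smc3-cKO). Higher shares in both Smc3-cKO libraries were thus not particular to classical monocytes. In the same order there were 85, 79, 205 and 81 nonclassical monocytes and 9, 19, 7 and 31 Cd209a dendritic cells. Without the Ly6c2 condition the shares of kept cells were 0.393% and 0.531% (Smc3-WT) against 2.03% and 1.69% (Smc3-cKO), so that the 2 Smc3-cKO libraries then lay closer together, at 4.06-fold.

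**Figure D1:**
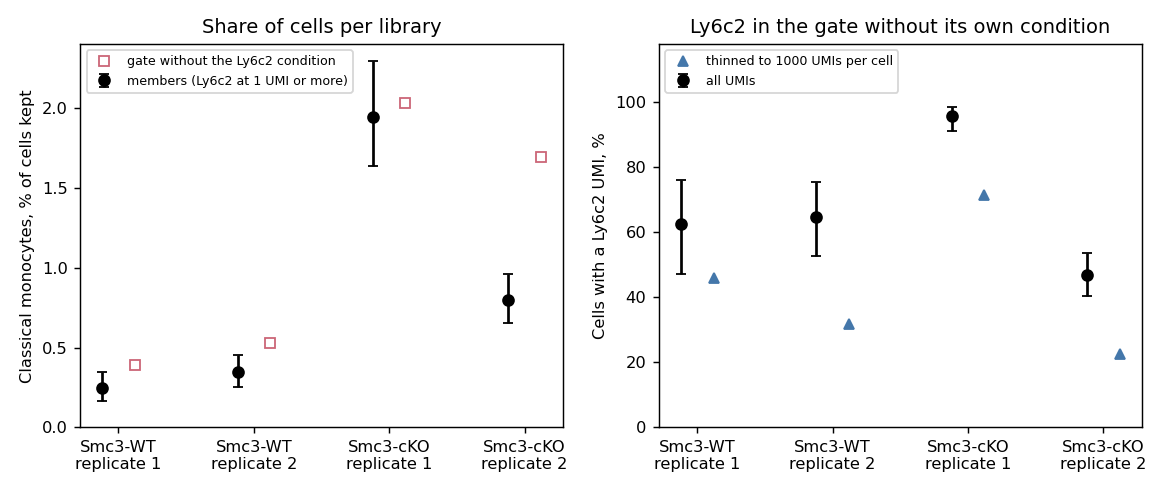
The left panel plots classical monocytes as a percentage of kept cells in each library (filled points with exact 95% intervals) and the same without the Ly6c2 condition (open squares). The right panel plots the percentage of cells with a Ly6c2 UMI in the gate without its own condition, with all UMIs (points, exact 95% intervals) and thinned to 1000 UMIs per cell (triangles). Both Smc3-cKO shares lie above both Smc3-WT shares, and Smc3-cKO replicate 2 has the lowest Ly6c2 detection at 47.0%.

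The most abundant nuclear-coded genes outside the rule and the ribosomal proteins were Gm42418, Tmsb4x, Malat1, Actb, Psap, Zeb2, Tpt1, Arhgap15, Ptprc, Plac8, Fau, Eef1a1, Tmsb10, Plcb1 and Cybb. Psap, the precursor of the saposins that activate lipid breakdown in lysosomes, was even across libraries, at 3964, 3633, 3654 and 4461 CPM. Zeb2, a transcriptional repressor needed for monocyte development, stood at 3569, 3324, 3372 and 4332 CPM. Cybb, the catalytic chain of the phagocyte NADPH oxidase, stood at 1911, 2150, 1901 and 2516 CPM. Plac8, by contrast, was at 857 CPM in Smc3-WT replicate 1 and at 3003 to 3863 CPM in the others. Plcb1, a phospholipase C of G protein signalling, was abundant at 2797 and 1300 CPM (Smc3-WT) against 2521 and 2580 CPM (Smc3-cKO), and had a UMI in 0.157% of B cells of Smc3-WT replicate 1 against 93.3% of its members.

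Members were set against nonclassical monocytes of the same libraries, gated on Ace and Treml4, of which there were 85, 79, 205 and 81. This comparison asks which genes outside the rules separate the 2 monocyte classes, with the library as a block. The nonclassical gate also held RNA of another cell type: 37, 20, 51 and 6 of its cells had a UMI of Spic, Vcam1 or C1qa, genes of the red pulp macrophages that recycle iron. A narrower gate, chosen after this was seen, required Ace and left out cells with those genes or with Clec9a or Xcr1, which leaves 37, 56, 148 and 68 cells, and values with it are given beside the results that follow.

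Fn1, Mmp8 and Gas7 had the largest changes among the abundant genes that were higher in classical monocytes. Of 5398 genes tested, 489 (9.06%) were higher and 532 (9.86%) lower in classical monocytes (edgeR quasi-likelihood test, Benjamini-Hochberg adjusted p under 0.05). With the narrower gate 429 of 4070 (10.5%) were higher and 421 (10.3%) lower, and 642 genes were called with the same sign in both. Without Smc3-cKO replicate 1 only 506 genes were called in all, and DESeq2 called 581.

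Fn1, encoding fibronectin, stood at 1550, 1871, 1736 and 2918 CPM in the classical monocytes of the 4 libraries and at 26.4, 98.9, 6.82 and 137 CPM in the nonclassical gate. The ranges did not overlap, and the log2 change was 5.33 ± 0.34 (SE; edgeR adjusted p = 1.16e-12). Mmp8, the neutrophil collagenase, was at 136, 56.5, 90.3 and 169 CPM against at most 3.95 CPM, a log2 change of 6.24 ± 0.52 (edgeR adjusted p = 2.89e-10). Gas7, a cytoskeletal adaptor, was 5.11 ± 0.31 higher on the log2 scale, Atrnl1 4.16 ± 0.21 and Itga1, an integrin that binds collagen, 4.45 ± 0.36. Others among the 12 largest were Stxbp6, A330040F15Rik, Sgms2, Wfdc17, S100a10 and Fgl2, with log2 changes of 2.84 to 3.25. All 12 were called with the narrower gate too, where Fn1 stood at 5.11 and Mmp8 at 6.35. Plcb1 was also higher in classical monocytes, at 1275 to 2895 against 134 to 447 CPM, a log2 change of 2.81 ± 0.26 (edgeR adjusted p = 1.7e-09), and 2.47 with the narrower gate.

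The genes that were lower in classical monocytes split by the gate used. The largest changes with the full gate were of Cadm1, Dgki, Dlc1, Ptprm, Itga9, Ank2, Mertk, Eno3, Cd300e, Dst, Fabp4 and Dnah12. Only 4 of these 12 were called with the narrower gate, namely Eno3, Cd300e, Fabp4 and Dnah12. Mertk, the receptor by which macrophages take up dying cells, was at 1340, 570, 597 and 130 CPM in the full nonclassical gate and at 0 in every library of the narrower one. Cadm1 had no UMI in any classical monocyte, stood at 141 to 1179 CPM in the full gate and at most at 6.15 CPM in the narrower one. The remaining 8 are therefore not described as nonclassical monocyte genes. Genes that held with the narrower gate included Pparg, a nuclear receptor of lipid metabolism, at 9.97 to 31.4 CPM in classical monocytes against 450 to 837 CPM (log2 change -4.54 ± 0.23, edgeR adjusted p = 2.62e-12 with that gate). Slc12a2, a sodium, potassium and chloride transporter, was at 4.59 to 19.9 against 506 to 729 CPM (-5.38 ± 0.25). Cd36, the scavenger receptor for oxidised lipid, was at 9.18 to 23.6 against 309 to 471 CPM (-4.53 ± 0.24).

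**Figure D2:**
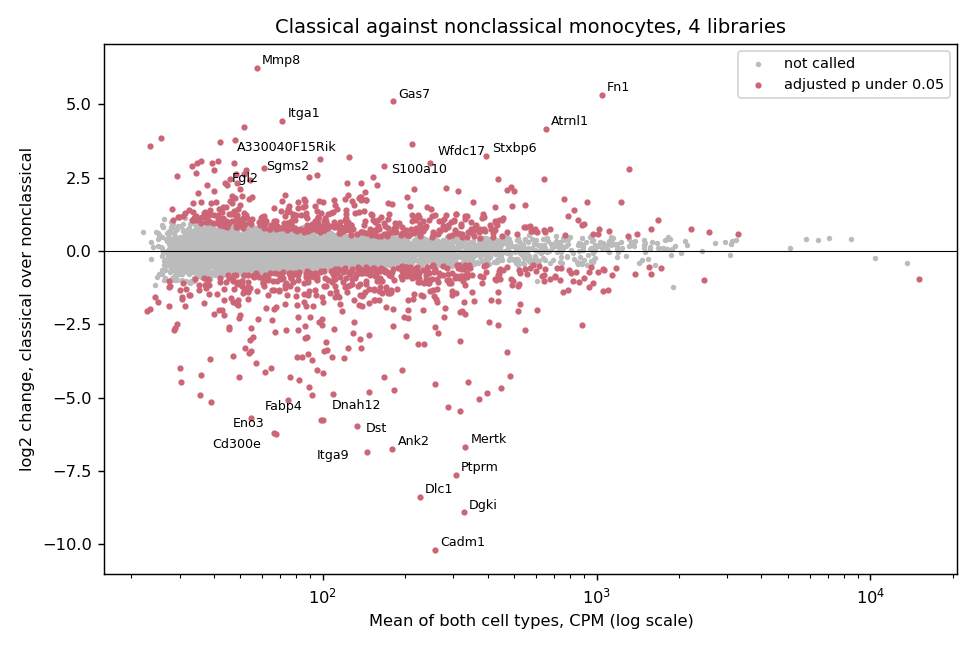
Each point is a gene tested between classical and nonclassical monocytes, with the mean CPM of both classes on a logarithmic x axis and the log2 change, classical over nonclassical, on the y axis. Genes called at an adjusted p under 0.05 are in red, and the names mark genes among the 12 largest changes in each direction at a high level. Fn1 and Atrnl1 combine a large change with a high level, and the lowest points (Cadm1, Dgki, Dlc1, Ptprm) are genes at or near 0 in the narrower nonclassical gate.

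The gene lists followed the 2 classes, which for the lists of classical and nonclassical genes largely follows from the gates. The 2 gates set opposite limits on Ace and Treml4 and on the sum of Ly6c2, Ccr2, F13a1 and Vcan. Genes that go with these markers then part in the same way, so these 2 lists describe the classes and are no independent support for them. Over all genes 9.06% were higher and 9.86% lower with the full gate, and 10.5% and 10.3% with the narrower one. Of 20 tested members of the mature classical monocyte list, 14 were higher and 1, Ly6i, lower in classical monocytes, with a median log2 change of 1.29 beside 0.02 over all genes. Chil3, the chitinase-like protein Ym1, was at 497 to 2030 CPM against 21.1 to 956 CPM (2.47 ± 0.30, edgeR adjusted p = 3.88e-07), and both its classes were highest in Smc3-cKO replicate 2. Ccl9, a chemokine for CCR1, was 2.25 ± 0.20 higher and Vim, the filament protein vimentin, 2.20 ± 0.18 higher. With the narrower gate 12 of 20 members were higher and 1 lower (median 1.07), with Chil3 at 2.13, Ccl9 at 1.99 and Vim at 1.92. All 22 tested nonclassical monocyte genes were lower, with a median of -3.07, and 23 of 23 were with the narrower gate. Nr4a1 was among them at 48.7, 123, 131 and 165 CPM against 235, 483, 387 and 520 CPM (-1.73 ± 0.18, edgeR adjusted p = 1.27e-08). Cx3cr1, the fractalkine receptor often used to part the classes, differed least, by -0.56 ± 0.17 (edgeR adjusted p = 0.0149). Nr4a1 was at -1.98 and Cx3cr1 at -0.85 with the narrower gate.

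Of 28 transcription factors tested, 2 were higher (Cebpd and Tcf4) and 7 lower, beside 9.06% and 9.86% over all genes. Klf4, a factor that monocyte differentiation needs, was lower by -1.06 ± 0.18 (edgeR adjusted p = 7.03e-05), and Cebpb, which maintains nonclassical monocytes, by -0.75 ± 0.18 (edgeR adjusted p = 0.0023). Both were lowest in Smc3-WT replicate 1, where Klf4 stood at 19.5 CPM against 154 to 216 CPM in the other classical samples. Bcl6, Etv6 and Nr4a1 were lower as well. With the narrower gate 4 of 26 were higher and 8 lower, with Klf4 at -1.35 and Cebpb at -1.02, and Cebpd was not testable. Maf, a macrophage factor, was lower with the full gate and higher by 0.97 on the log2 scale with the narrower one. Spi1 (-0.27 ± 0.17, edgeR adjusted p = 0.307) and Irf8 (0.16 ± 0.18, edgeR adjusted p = 0.601), factors of the whole lineage, did not pass with the full gate. With the narrower gate Spi1 was at -0.48 ± 0.16 (edgeR adjusted p = 0.0367) and Irf8 at 0.84 ± 0.19 (edgeR adjusted p = 0.00197).

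Receptor and adhesion lists held more lower than higher members, while over all genes 9.06% were higher and 9.86% lower. Among growth factor and cytokine receptors 1 of 18 was higher, the G-CSF receptor Csf3r, and 5 were lower, with Tgfbr1 at -1.74 and Tgfbr2 at -1.31 the largest. Among migration and adhesion genes 3 of 17 were higher, Itgb7 and Sema4a among them, and 7 lower, with Itgal, the LFA-1 alpha chain of patrolling cells, at 509 to 701 against 765 to 1797 CPM (-1.10 ± 0.19, edgeR adjusted p = 9.02e-05). Among phagocytic, Fc and complement receptors 5 of 24 were higher, with the scavenger receptor Msr1 (2.02 ± 0.23) and the inhibitory Fc receptor Fcgr2b in front, and 10 were lower. Fcgr4, the activating Fc receptor of nonclassical monocytes, fell by 3.42 on the log2 scale. Of the red pulp macrophage list 8 of 9 were lower with the full gate, and of the 2 testable with the narrower gate none was. With that gate the counts were 1 of 17 higher and 6 lower for growth factor and cytokine receptors, 3 of 17 and 8 for migration and adhesion, and 2 of 18 and 7 for phagocytic, Fc and complement receptors. Tgfbr1 was then at -1.92, Itgal at -1.49, Msr1 at 2.23 and Fcgr4 at -3.63.

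Lysosomal and antigen-handling genes did not move as a block. Their counts stand beside 9.06% higher and 9.86% lower over all genes. Of 18 lysosome genes 8 were higher in classical monocytes, among them Npc2 (1.55), Grn (0.89) and Psap (0.60), and 2 were lower, Ctsb (-1.22) and Ctsd (-0.83). With the narrower gate 6 of 18 were higher and 1 lower, with Npc2 at 1.49 and Ctsb at -1.10, while Ctsd turned to 0.35 and did not pass. Of 10 MHC class II genes tested, the class II chains H2-Aa, H2-Ab1 and H2-Eb1, their chaperone Cd74 and the protease Lgmn were lower, while H2-DMa, which loads peptide, and Ifi30, a lysosomal thiol reductase, were higher. Cd74 was at 1043, 355, 268 and 276 CPM against 1667, 1135, 852 and 693 CPM (-1.34 ± 0.19, edgeR adjusted p = 2.83e-06), and -0.85 with the narrower gate, where 2 of 8 members were higher and 5 lower. The list's median of -0.99 turned to 0.24 when the Ly6c2 condition was left out, and 3 of 10 members were then called. The Ly6c2-negative cells, which that gate adds, carried Cd74 at 1473 to 4185 CPM (unscaled). Cholesterol and lipid genes were lower in 7 of 13 and higher in none, among them Fabp4, Apoe and Abcg1, and in 6 of 9 with the narrower gate. Immediate early and heat shock genes were lower in 3 of 13, Nr4a1 included, and higher in none, and in 2 of 11 with the narrower gate.

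**Figure D3:**
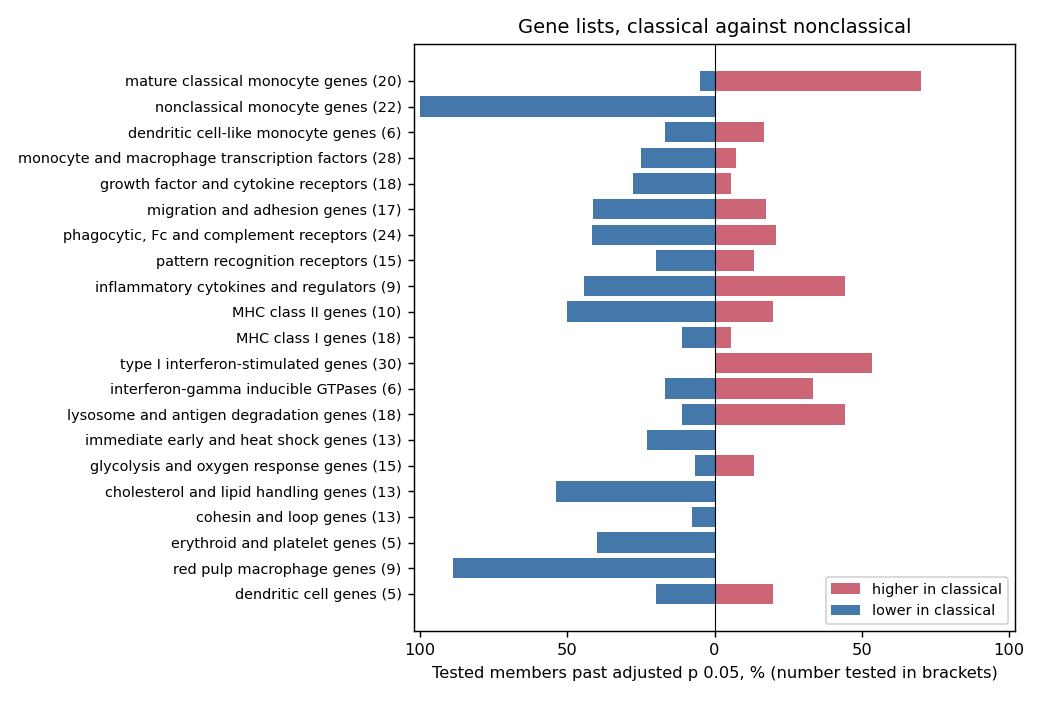
Bars give the percentage of each list's tested members that were called higher (red, to the right) or lower (blue, to the left) in classical than in nonclassical monocytes at an adjusted p under 0.05, for lists with 5 or more tested members. The type I interferon-stimulated list has 16 of 30 higher and 0 lower, and the nonclassical list 22 of 22 lower. The gates set opposite limits on markers of the classes, so the split of the monocyte lists largely follows from them. Over all genes tested 9.06% were higher and 9.86% lower.

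Among type I interferon-stimulated genes, 16 of 30 tested members were higher in classical than in nonclassical monocytes and 0 were lower. The shares over all genes were 9.06% and 9.86%. Interferons act through the factor ISGF3, which contains IRF9 and binds a short element in promoters. The median was 0.70 over the 30, and with the narrower gate 14 of 23 were higher (median 0.74). DESeq2 called 11 of the 30. Slfn5, a growth-regulating schlafen protein, was at 468, 380, 824 and 476 CPM in classical monocytes and at 111, 186, 197 and 191 CPM in nonclassical ones (1.66 ± 0.19, edgeR adjusted p = 1.22e-07). Every classical value lay above every nonclassical value. Ifi211, a member of the DNA-sensing IFI200 family, was at 224, 139, 292 and 204 against 29.0, 39.5, 63.6 and 115 CPM (1.85 ± 0.24, edgeR adjusted p = 1.13e-06). Slfn5 was at 1.66 and Ifi211 at 1.63 with the narrower gate. Ifi209, Ifi211 and Ifi213 are close copies, so reads could be split among them.

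The promoters of these genes are shown because the regulator of the list has a known element. RefSeq promoter windows (build GRCm38.p6) were found for 13 of the 16 members that were higher. The 250 bases before the start were searched for GAAANNGAAA and, on the other strand, TTTCNNTTTC, which is the core of the interferon-stimulated response element. A match stood in 8 of the 13 (61.5%), in 16 of the 32 listed members with a window, in 171 of 4344 genes tested (3.94%) and in 936 of all 27025 genes with a window (3.46%). Slfn1, Oasl2 and Ifi209, with log2 changes of 1.79, 1.38 and 1.24, had no match. Of the members with a match, the 4 with the largest change are printed 5′ to 3′ on the gene's strand, with the matching bases in capitals. They are Ifi211 (chr1:173913047-173913296, minus strand, match from base -37), Slfn5 (chr11:82951852-82952101, plus strand, from -155), Ifi213 (chr1:173599273-173599522, minus strand, from -73) and Oas3 (chr5:120777660-120777909, minus strand, from -75). A match is a stretch of letters, not a measured site.
Ifi211: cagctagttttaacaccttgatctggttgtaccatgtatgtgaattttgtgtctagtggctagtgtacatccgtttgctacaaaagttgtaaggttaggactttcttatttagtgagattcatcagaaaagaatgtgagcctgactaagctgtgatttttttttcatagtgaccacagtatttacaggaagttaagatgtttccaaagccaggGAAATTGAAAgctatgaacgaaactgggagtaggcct
Slfn5: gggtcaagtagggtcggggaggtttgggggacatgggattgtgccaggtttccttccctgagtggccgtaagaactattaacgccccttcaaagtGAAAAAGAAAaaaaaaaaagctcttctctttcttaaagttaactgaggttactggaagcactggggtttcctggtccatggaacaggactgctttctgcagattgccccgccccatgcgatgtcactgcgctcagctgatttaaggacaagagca
Ifi213: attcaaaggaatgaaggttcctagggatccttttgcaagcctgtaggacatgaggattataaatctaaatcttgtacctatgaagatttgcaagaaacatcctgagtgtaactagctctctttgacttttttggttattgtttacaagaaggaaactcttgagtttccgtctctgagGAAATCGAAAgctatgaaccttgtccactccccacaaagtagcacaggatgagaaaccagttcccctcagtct
Oas3: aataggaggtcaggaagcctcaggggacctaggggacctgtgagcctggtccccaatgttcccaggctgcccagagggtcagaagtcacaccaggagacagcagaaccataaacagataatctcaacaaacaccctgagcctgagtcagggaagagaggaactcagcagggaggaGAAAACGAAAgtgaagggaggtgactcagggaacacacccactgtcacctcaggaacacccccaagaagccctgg

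The main question was what Smc3-cKO changed within these cells. The targeted gene comes first: Smc3 was at 104 and 73.4 CPM (Smc3-WT) against 80.2 and 98.8 CPM (Smc3-cKO) (log2 change 0.05 ± 0.40), so the groups overlapped. Smc3 had a UMI in 9 of 30, 25.0%, 34.5% and 28.7% of members and in 28.9% to 35.8% of B cells. The kit counts the 3′ ends of transcripts and the deleted part is not given, so this value does not check the labels. The direction of the Smc3 change was not stable across settings. None of the 13 tested cohesin and loop genes had an unadjusted p under 0.05. Nipbl, the cohesin loader, was at 650, 519, 654 and 618 CPM, Stag1 at 452, 346, 352 and 383 CPM, and Stag2 at 395, 288, 325 and 334 CPM, all with overlapping groups.

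No gene passed between genotypes. Of 5291 genes tested with all 4 libraries, 0 (0%) had an adjusted p under 0.05 (edgeR), 145 (2.74%) reached 0.05 without adjustment. DESeq2 made 0 calls, with 44 genes at an unadjusted p under 0.05. Both Smc3-cKO libraries lay above both Smc3-WT libraries in 815 genes (15.4%) and below in 812 (15.3%). The count changed with the Smc3-WT library used: without Smc3-WT replicate 2, which leaves Smc3-WT replicate 1 alone for its genotype, 387 genes were called, and without Smc3-WT replicate 1 there were 12. In both, Smc3-WT is 1 library that is assumed to vary like the Smc3-cKO libraries, which alone give the spread. The 2 sets had 0 genes in common. Without Smc3-cKO replicate 2 it was 1 gene, without Smc3-cKO replicate 1 it was 0, and without the Ly6c2 condition it was 0 with 265 genes at an unadjusted p under 0.05. Within a replicate number there is 1 library per genotype, so no separate test could be made there.

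The genes below had the smallest unadjusted p among those with no overlap and at least 50 CPM in the higher genotype, and none passed. The higher side included Ascc1, Snrpb, Junb, Trim25 and Lmo4. Junb, a subunit of the AP-1 transcription factor, was at 56.5 and 57.7 CPM (Smc3-WT) against 139 and 141 CPM (Smc3-cKO) (1.29 ± 0.38, edgeR adjusted p = 1.0). Ascc1, at 9.42 and 10.5 against 65.5 and 56.4 CPM, had the largest log2 change of the group, 2.57 ± 0.65. Its Smc3-WT values rested on 1 and 2 UMIs.

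The lower side included H2-Eb1, Gm2682, Bank1, Cep68 and BE692007. H2-Eb1, a class II beta chain, was at 198 and 142 CPM (Smc3-WT) against 48.1 and 35.3 CPM (Smc3-cKO) (-1.96 ± 0.40). Bank1, a scaffold protein of B cells, was at 490 and 99.6 against 30.7 and 44.7 CPM (-2.90 ± 0.68). B cell RNA moved with this side: the 12 B cell genes outside the gate summed to 2255 and 442 CPM (unscaled) in Smc3-WT members and to 385 and 397 CPM in Smc3-cKO members, and none of them was at 0 in all libraries. Among members with no B or T cell UMI of the gate, the sums were 1261, 451, 363 and 291 CPM. H2-Eb1 stood there at 91.7 and 161 CPM against 41.8 and 15.9 CPM (-2.12 ± 0.57), and Bank1 at 68.8 and 90.2 against 30.5 and 15.9 CPM (-1.72 ± 0.56). Without Smc3-WT replicate 1 Bank1 was at -1.43, and without the Ly6c2 condition its groups overlapped, at 359 and 85.2 against 29.8 and 135 CPM (-1.37 ± 0.71).

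**Figure D4:**
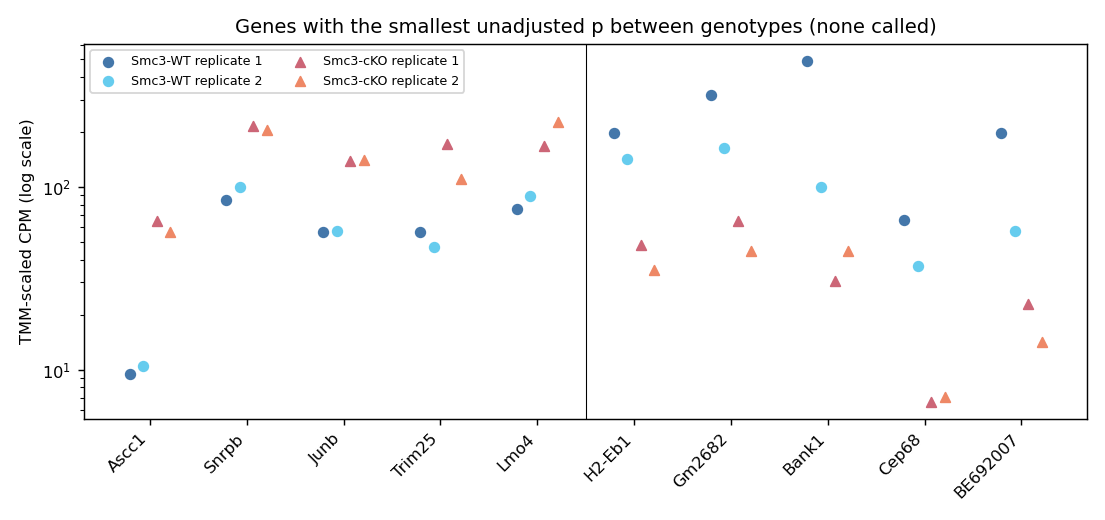
Points give the TMM-scaled CPM (logarithmic axis) of 10 genes in the members of each library, circles for Smc3-WT and triangles for Smc3-cKO. Left of the line are 5 genes with the smallest unadjusted p on the higher side, right of it 5 on the lower side. The genotypes do not overlap in any of them, by the choice of the genes, and none passed the adjusted test.

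By list, MHC class II genes had the most members with a small p. Of 10 tested, 6 had both Smc3-cKO libraries below both Smc3-WT libraries and 2 had both above, beside 15.3% and 15.4% of all genes. An unadjusted p under 0.05 in edgeR was reached by 5, and the median was -0.47 beside 0.02 over all genes. H2-Aa was at 311 and 168 against 78.9 and 98.8 CPM, and Cd74 at 1008 and 362 against 270 and 280 CPM (-1.30 ± 0.52). Both were lower in Smc3-cKO, as was H2-Ab1 (217 and 126 against 76.2 and 68.2 CPM). H2-DMb1, which edits the peptide cargo, was at 18.8 and 15.7 against 48.1 and 49.4 CPM (1.51 ± 0.59), on few Smc3-WT UMIs. Cathepsin S (Ctss), which trims the Cd74 chain, was even at 1397 to 1525 CPM. Members with no UMI of H2-Aa, H2-Ab1, H2-Eb1 or Cd74 made up 6.67% and 43.8% (Smc3-WT) against 49.6% and 66.7% (Smc3-cKO), at unequal depths. Without the Ly6c2 condition Cd74 was at 2379 and 916 CPM (unscaled) in Smc3-WT and at 436 and 826 CPM in Smc3-cKO, with a list median of -0.58. H2-Aa then overlapped between genotypes, at 778 and 345 against 164 and 400.0 CPM (-0.96 ± 0.51). The median was -0.22 without Smc3-WT replicate 2 and -1.01 without Smc3-cKO replicate 1. Free class II RNA from B cells, in which Cd74 had a UMI in 98.1% and 99.2% of Smc3-WT cells, was not tested as a part of this.

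Type I interferon-stimulated genes had a median of 0.53 over 33 tested members. Without overlap 9 lay above and 0 below, beside 15.4% and 15.3% of all genes, and 2 had an unadjusted p under 0.05 in edgeR. Most of the size came from Smc3-cKO replicate 1, where the 42 listed genes summed to 11214 CPM (unscaled) beside 7062 and 5652 CPM for the Smc3-WT libraries, with Smc3-cKO replicate 2 at 6153 CPM. Without that library the median was 0.07, and without Smc3-cKO replicate 2 it was 1.0. The same library was highest in the list among nonclassical monocytes (6230 CPM with the narrower gate) and B cells (4776 CPM). Rtp4 had the largest change, at 9.42 and 21.0 against 144 and 32.9 CPM (2.45 ± 0.95). Irf9, the DNA-binding subunit of ISGF3, was at 37.7 and 62.9 against 107 and 122 CPM. Ifi27l2a showed how far libraries of a genotype could part, at 75.3 and 1190 against 1824 and 548 CPM.

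**Figure D5:**
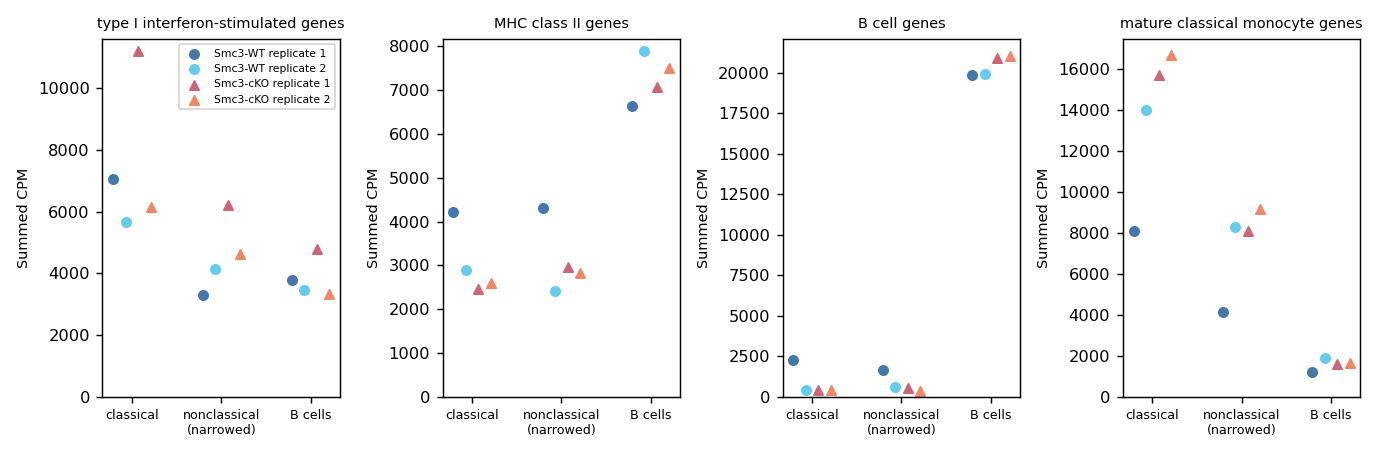
Each panel gives the summed CPM (unscaled, axis from 0) of a gene list in classical monocytes, nonclassical monocytes of the narrower gate, and B cells, for each library (circles Smc3-WT, triangles Smc3-cKO). Interferon-stimulated genes are highest in classical monocytes of Smc3-cKO replicate 1 at 11214 CPM, and among the classical monocyte samples B cell genes are highest in Smc3-WT replicate 1 at 2255 CPM, far under the B cells themselves.

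Other lists were as follows, with 0 members called in each. Beside their counts, 15.4% of all genes tested lay above and 15.3% below without overlap. Mature classical monocyte genes had a median of 0.41 over 19 tested, with 8 above and 1 below. The median was 0.21 without Smc3-cKO replicate 2 and 0.62, with 6 called, without Smc3-WT replicate 2. The list summed to 8096 CPM in Smc3-WT replicate 1 against 13995 to 16692 CPM in the other libraries. Ifitm6, an interferon-induced membrane protein, had the largest change, at 28.2 and 252 against 529 and 322 CPM (1.49 ± 0.68). Chil3 was at 2066 CPM (unscaled) in Smc3-cKO replicate 2 and at 502 to 738 CPM in the other libraries. Immediate early and heat shock genes had 8 of 12 above and 0 below (median 0.49, and 0.23 without Smc3-WT replicate 1). Nr4a1 was at 47.1 and 126 against 132 and 167 CPM (0.67 ± 0.44). Glycolysis genes had 5 of 14 above and 1 below (median 0.58, and 0.10 without Smc3-WT replicate 1), with the kinase Pgk1 at 47.1 and 89.1 against 142 and 132 CPM. Both lists thus shrank by over 1.5 times when that library was left out.

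Among 29 transcription factors 5 were above and 6 below, with a median of 0.16, near the shares of 15.4% and 15.3% over all genes. Spi1 was at 358 and 514 against 583 and 407 CPM, and Irf8 at 330 and 336 against 283 and 376 CPM, both with overlap. Klf4 was at 18.8 and 220 against 155 and 200 CPM and Cebpb at 47.1 and 482 against 473 and 581 CPM (0.92 ± 0.74), so that in both Smc3-WT replicate 1 was the low one. Bach2, a repressor best known from lymphocytes, was at 452 and 115 against 86.9 and 75.3 CPM (-1.71 ± 0.57), and it was the member with the smallest p, 0.015 unadjusted in edgeR. Among inflammatory genes Cxcl10, a chemokine for CXCR3, was at 0 and 10.5 against 40.1 and 32.9 CPM, and Ccl5 at 65.9 and 47.2 against 25.4 and 9.41 CPM. Among pattern recognition receptors and adaptors Myd88, the adaptor of most Toll-like receptors, was at 18.8 and 21.0 against 60.1 and 63.5 CPM (1.60 ± 0.55). Its Smc3-WT values rested on few UMIs. Il1b had a UMI in 0% to 6.48% of members. Phagocytic, Fc and complement receptors had 5 of 18 above and 1 below, cholesterol and lipid genes 0 of 9 above and 2 below, and cytokine receptors 6 of 19 above and 1 below.

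Members with any UMI of 7 cell cycle genes made up 12 of 30 in Smc3-WT replicate 1, and 8.33%, 23.7% and 3.70% in the other libraries in order. Cells with at least 3 UMIs of these genes numbered 0 of 30 (upper limit 11.6%), 3 of 48 (6.25%), 6 of 139 (4.32%) and 1 of 108 (0.926%), against 1.54% to 3.95% of B cells.

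Genes that an earlier analysis of these libraries found changed in Smc3-cKO dendritic cells were looked up as well, and since they were chosen on these samples they are no independent evidence. Of 22 genes lower in those cells only 3 (Adgre1, Bank1 and Nod1) were testable here, and none was called. The 22 summed to 1044 and 724 CPM (unscaled) in Smc3-WT members and to 429 and 404 CPM in Smc3-cKO members. Of these sums Bank1 alone gave 512, 97.5, 29.9 and 44.9 CPM in library order. Among members with no B or T cell UMI of the gate the list was at 550 and 773 against 395 and 379 CPM. Adam23 and Frmd5 had no UMI in any library but Smc3-WT replicate 2, where 6 and 11 were counted, and Dscam had 10 there and 14 in Smc3-cKO replicate 1. Of the genes higher in those cells, Plcb1 overlapped between genotypes here (0.32 ± 0.63), as did Xdh and Tcf4. Plcb4 had 1 UMI in each Smc3-WT library and 16 and 5 in the Smc3-cKO libraries, too few for a test.

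Members also differed from each other in MHC class II RNA. Per 10000 UMIs the 4 class II genes had a median of 7.77, 1.86, 0.596 and 0 in the libraries and a highest value of 68.3 to 190. Each library was split at its own median, which gives a range and not a cell type, with no test. Within 1 UMI of that split lay 10 of 30, 38 of 48, 104 of 139 and 91 of 108 members. In Smc3-cKO replicate 2 the upper side held 36 and the lower 72 cells. The upper side was deeper in 3 libraries (medians of 3913 against 3497, 5548 against 4988 and 4406 against 3397 UMIs) and shallower in Smc3-WT replicate 1 (2902 against 3362). The same sign in all 4 libraries was found for 610 genes with at least 50 CPM on 1 side, 293 higher and 317 lower. How many genes reached that level in all was not counted, so no share stands beside the 610. Some genes share a sign in 4 libraries without any link to class II, so neither the count nor a gene named from it is a result. Beside the genes of the split, Adgrl3, Ciita, Bach2 and Rtn1 were among those higher in the upper side. Adgrl3 is a latrophilin receptor and Ciita the master coactivator of class II genes. Adgrl3 was at 433 against 0 CPM in Smc3-WT replicate 2 and at 12.7 against 7.53 CPM in Smc3-cKO replicate 2. Ciita was at 40.6, 80.5, 37.3 and 88.6 CPM above against 19.1, 10.5, 8.18 and 0 CPM below. Ckap4 was lower in all 4, though only at 39.7 against 43.6 CPM in Smc3-cKO replicate 1. The median B cell UMI count was 1 above and 0 below in Smc3-WT replicate 1 and 0 on both sides elsewhere.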

How the data were processed

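Libraries were made with a droplet kit for 3′ ends. The deposited values are raw UMI counts per gene and cell, written by Cell Ranger 7.0.0 per the file headers; the submitters' processing notes name mm10, deepTools and Juicer without their roles. Barcodes under 200 genes or over 10% mitochondrial UMIs were dropped. Counts were summed over the gated cells of each library and tested with edgeR 4.0.16 (filterByExpr, TMM, quasi-likelihood F test, Benjamini-Hochberg over all genes outside the gates) in R 4.3.3. DESeq2 1.42.0 was an alternative. The genotype fit used the 4 libraries, and the cell type fit had the library as a block. Shares were compared by exact permutation. Python 3.11.15 and scanpy 1.11.5 (Scrublet, for marking doublets only) were used, and doublets were left out only as an alternative. Intervals (exact, Clopper-Pearson) hold counting error alone. The planned comparisons with Cd209a dendritic cells were not run, since they needed 20 cells per library and there were 9, 19, 7 and 31.

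Named genes between cell types were the 12 largest called changes each way with at least 100 CPM and 1 sign in all 4 libraries. Between genotypes, with fewer than 6 called, they were the 6 smallest unadjusted p each way, with at least 50 CPM and no overlap. Levels were the 15 highest. From the gene lists came every member that passed, the most abundant members and the largest changes at 20 CPM or more. Smc3, Spi1, Irf8, Klf4, Cebpb, Nr4a1 and the gate genes were always given. Pparg, Slc12a2, Cd36, Plcb4, Adam23, Frmd5 and Dscam were picked from the lists or the narrower comparison after their values were seen. The cells and lists were chosen with earlier results of these data known. Counts were also simulated from a common profile of these cells with a fixed dispersion, without a library that stands apart. On them the genotype fit (5116 genes) recovered 5.88% of 2-fold, 81.8% of 4-fold and 100% of 8-fold changes. The changed genes had at least 100 UMIs. As Smc3-WT replicate 1 stood apart in the real data, these shares may be too high for the real fit. Results for a few genes that met these rules are not reported here.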

Additional observations from a re-analysis of the deposited data

Results flagged for a closer look

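The genotype effect differed between classical and nonclassical monocytes by the interaction test (edgeR adjusted p under 0.05) in 12 of 6392 genes (0.188%), and DESeq2 called 0, with 54 at an unadjusted p under 0.05. Differences are log2, classical minus nonclassical. The globins were Hbb-bs at 4.06, Hbb-bt at 2.94, Hba-a1 at 2.98 and Hba-a2 at 2.53. Hbb-bs was at 1579, 30.8, 1764 and 144 CPM in classical and 8691, 1202, 1778 and 3.61 CPM in nonclassical monocytes, in library order. Lymphocyte genes were Themis at -5.58 and Skap1 at -2.66. The transcription factor Runx2 stood at -1.68, with 175, 242, 66.4 and 114 CPM in classical and 287, 328, 318 and 505 CPM in nonclassical monocytes. Id2, an inhibitor of DNA binding, stood at 2.34, with 68.2, 72.0, 119 and 92.8 against 156, 186, 65.9 and 28.9 CPM. Adamts6 stood at -2.95, 5730522E02Rik at 2.93 and Sox6 at 5.81. Sox6 was at 0 CPM in both classes of both replicates numbered 2. In the replicates numbered 1 it was at 9.75 (Smc3-WT) and 49.1 CPM (Smc3-cKO) in classical and 116 and 9.09 CPM in nonclassical monocytes. 4931431B13Rik stood at 7.63, a fitted value that depends on the prior count, as it had no UMI in Smc3-WT classical monocytes. With the narrower nonclassical gate 2 genes were called.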

How the results depend on the processing

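The genotype count of 0 was 20 with no filter on low counts and 0 to 387 when 1 library was left out (the highest lacking Smc3-WT replicate 2; without Smc3-WT replicate 1 it was 12). The count of 1021 between cell types was 581 with DESeq2, 441 thinned to 1000 UMIs, and 506 to 1353 with 1 library left out. The interaction count of 12 was 0 with DESeq2, 2 when thinned, 4 without the Ly6c2 condition, 2 with the narrower gate, and 4 to 36 with 1 library left out. The ratio of shares kept its direction in every alternative run, with log2 values from 0.51 to 2.74. The labels do not say that equal replicate numbers share an animal or day. The deviations of same-numbered libraries correlated at 0.0837 over 5291 genes and at 0.136 over 3069 genes with at least 100 UMIs, and with 2 pairs this does not settle a pairing. With the replicate block the genotype count was 0, the log2 ratio of shares was 2.10, and without the Ly6c2 condition the blocked count was 1. Between genotypes the sign turned for Cd93 (0.044 with no B or T cell UMI), Jund (-1.05 to 0.12 with a library left out), Ms4a4b (-1.12 to 0.26 with a library left out, 0.29 at 5% mitochondrial UMIs) and Smc3 (-0.19 to 0.27 with a library left out, -0.028 with a gate at 6 UMIs, -0.21 with no B or T cell UMI). Between cell types it turned for Adgre1 (0.20), Ctsd (0.35) and Maf (0.97) with the narrower gate, H2-Ab1 (0.15) without the Ly6c2 condition and Slpi (-0.10 to 0.61) with a library left out. With the narrower gate Slpi was higher in classical monocytes in all 4 libraries, at 3.35 ± 0.39 (SE). The cause of these turns was not tested. The narrower gate and the Ly6c2 alternatives were chosen after seeing the data. Smc3-WT replicate 1 gives 30 members to the genotype comparison.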
